A study of Mus musculus with 78 samples.

Results

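These data are the contacts of the Sik1 promoter on mouse chromosome 17, measured by circular chromosome conformation capture (4C) in embryonic stem cells with and without the transcription factor ZFP143. The 4 libraries with a Sik1 viewpoint were taken from the 28 libraries of 4C, and all restriction fragments between 20 kb and 1 Mb of the viewpoint on either side were kept, without regard to their values. This left 4214 of the 5972054 fragments in the deposited map. Of these, 1588 held reads in every Sik1 library and 1082 held none in any.

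All groups came from E14TG2a mouse embryonic stem cells, kept undifferentiated in serum-free medium with LIF and 2 kinase inhibitors. In this line both copies of the gene encode ZFP143 fused to an FKBP degron, and the line was grown from single sorted cells, so the DMSO controls carry the tag as well. The group 4C_DMSO received the solvent and the group 4C_dTAG_6H received 500 nM of the degrader dTAG-V1 for 6 h, with 2 replicates each. The methods call the replicates biological, the labels do not describe how they were separated, and the p-values measure the spread between these libraries.

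Sik1 encodes salt-inducible kinase 1, a serine/threonine kinase that phosphorylates CRTC coactivators and so keeps them from CREB. In 4C, DNA that was crosslinked near a chosen viewpoint is cut, ligated to it and sequenced, and the reads on a fragment count how often it was caught next to the viewpoint. CTCF is a zinc finger protein that stops the extrusion of DNA loops by cohesin, and it does so mainly where its motifs at both ends of a loop point toward each other. ZFP143 is a zinc finger activator that binds near many promoters, and the study chose Sik1 as a gene promoter without a ZFP143 peak.

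The viewpoint spans chr17:31856294-31857114 of mm10 (GRCm38), an intergenic segment 0.9 kb upstream of the start of Sik1, which lies on the minus strand at chr17:31844250-31855804. Distances below are negative toward lower coordinates, the side on which the Sik1 gene body lies. The primers are shown because they fix the viewpoint, and each matched chromosome 17 at 1 place, the forward primer on the minus strand at chr17:31856294-31856313 and the reverse primer on the plus strand at chr17:31857095-31857114. The capitals mark GATC, the site of the first restriction enzyme.
4C-Sik1-fwd: cccagcatagcagactGATC
4C-Sik1-rev: gaagacttcctgggtagagg

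The deposited CTCF list held 50 peaks within 1 Mb of this viewpoint, out of 22314 in all. When the genome was cut into 1309 tiles of 2 Mb, the median tile held 12 peaks, 93.5% of tiles held fewer than 50, and the densest held 92. The viewpoints at Zfp108 and Zfp111 had 37 and 36 CTCF peaks within the same reach, and those at Cldn1, Cpox, Rbm41 and Prmt6 had between 1 and 7. Of the 50 peaks, 10 touched an exon, 22 lay only in introns and 18 were intergenic. One peak, chr17:31855960-31856268, lay at the Sik1 promoter itself, 0.6 kb from the centre of the viewpoint. No other viewpoint had a CTCF peak closer than 33.5 kb.

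A match to the CTCF core consensus, 14 letters with at most 2 mismatches on either strand, was found within the 300 bases around the centre of 40 of the 50 peaks (80.0%). The same search found a match in 84.7% of all CTCF peaks and in 14.4% of all RefSeq promoter windows of that length. On the lower side 15 of 26 matches pointed toward the viewpoint, and on the higher side 6 of 14 did. Between the peaks at -171.0 kb and 168.9 kb, both included, 5 of 5 peaks outside 20 kb had a match that pointed toward the viewpoint, against 16 of 34 farther out. These bounds were chosen after the contact profile had been seen, so the count is a description.

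These matches are shown because the 5 peaks and the promoter peak lie inside the zone of dense contacts described next. Capitals mark the 14 bases that match, read 5′ to 3′ on the strand of the match.
CTCF at -171.0 kb, plus strand, chr17:31685655-31685684: cagtctgaCCACCAGGTGGCAGaagaggca
CTCF at -163.3 kb, plus strand, chr17:31693400-31693429: tcacatggCCGACAGGGGGCGCcttctacc
CTCF at -105.2 kb, plus strand, chr17:31751320-31751349: tacctaacCCAGTTGGTGGCAGgagaacta
CTCF at -45.1 kb, plus strand, chr17:31811584-31811613: agaaggtaCCACCGGGTGGTGGcgcacacc
CTCF at the Sik1 promoter, minus strand, chr17:31856069-31856098: gcccatgcCCGGCAGGGGGCGCcagcagtc
CTCF at 168.9 kb, minus strand, chr17:32025577-32025606: ccatcaggCCACTAGGCGGTGGtctgacac

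The 4 intergenic matches on the lower side are on the plus strand and thus read toward Sik1. The match at 168.9 kb, in an intron of Hsf2bp, is on the minus strand and reads toward Sik1 from the other side. The promoter match is also on the minus strand. It thus faces the 4 lower matches and has the same direction as that at 168.9 kb. The match at -171.0 kb had 0 mismatches, those at the promoter and -105.2 kb had 1, and those at -163.3 kb, -45.1 kb and 168.9 kb had 2. Farther out, 7 of the 40 matches opened with the same 12 bases, CCAGAAGAGGGC.

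The Sik1 libraries held 847549 and 908200 reads in DMSO and 849208 and 159480 after dTAG, where the 28 libraries of 4C ranged from 53823 to 908200. The second dTAG library is therefore the shallowest here, and 1 read in it was worth 6.27 RPM (reads on a fragment scaled to the counted reads of the library) against 1.10 to 1.18 RPM in the other 3. Between 84.9% and 86.4% of reads lay on chromosome 17. The fragment next to the viewpoint, chr17:31856191-31856297, took 37.4% and 42.2% of the reads in DMSO and 38.6% and 50.1% after dTAG, so the second dTAG library has the highest share there. This 107-base fragment overlaps the CTCF peak at the Sik1 promoter, and it meets the viewpoint at the GATC that ends the forward primer. Its reads cannot be told apart from DNA left uncut or rejoined at that site. It lies outside the fragments compared here. Because RPM divides by all reads of a library, a higher share on this fragment lowers the RPM elsewhere, and the comparisons of bins and windows below were therefore also made after scaling to the reads between 20 kb and 1 Mb (regional scaling).

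The Sik1 promoter had a plateau of contacts on both sides that ended between 180 and 200 kb out. In 20 kb bins the mean over libraries was 121 to 324 RPM per fragment in the 16 bins within 180 kb, with a median of 263, and 33.3 to 89.6 RPM in the 10 bins from 200 to 300 kb out, with a median of 59.4. The 16 bins were 16.3% of the bins tested and held 61.9% of the RPM of the locus, between 61.3% and 62.5% in each of the 4 libraries. On the lower side the drop lay between the bin of the peaks at -171.0 and -163.3 kb and the bin from -200 to -180 kb, which had 122 and 107 RPM in DMSO and 127 and 102 RPM after dTAG. On the higher side it followed the bin of the peak at 168.9 kb, and the bin from 180 to 200 kb had 151 and 146 RPM in DMSO and 142 and 113 RPM after dTAG. The plateau held 1 dip, from -100 to -80 kb, with 134 and 122 RPM in DMSO and 122 and 105 RPM after dTAG.

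**Figure D1:**
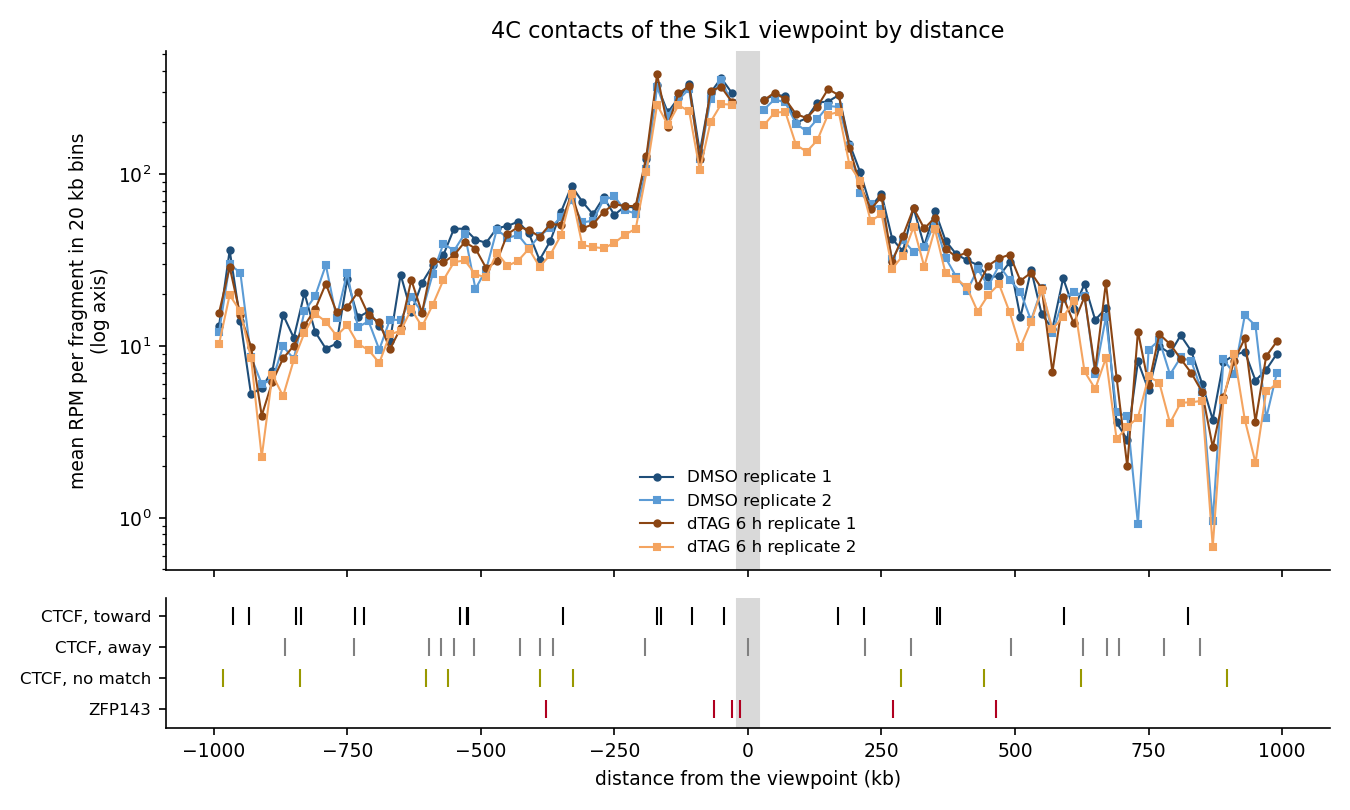
The upper panel plots mean RPM per fragment (log axis) in 98 bins of 20 kb against distance from the Sik1 viewpoint for the 4 libraries, and the lower panel marks CTCF peaks by the direction of their match, and ZFP143 peaks. All 4 lines run above 100 RPM within 180 kb on both sides and then fall, and the second dTAG library runs below the others over much of the locus.

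The height of this step was measured as the mean RPM per fragment 100 to 160 kb out over that 200 to 260 kb out, with bounds set after the profile had been seen. On the lower side the ratio was 4.44 and 4.19 in DMSO and 4.07 and 5.02 after dTAG. On the higher side it was 3.13 and 3.11 in DMSO and 3.55 and 2.67 after dTAG. The groups overlapped on both sides, and the difference of the mean log2 ratio was 0.07 on the lower and -0.02 on the higher side (exact permutation test, two-sided, p = 1.00 for both). With 2 libraries against 2 this test cannot give a p below 0.333, which holds for every permutation test below.

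The same ratio at the other viewpoints is given for comparison, with no test between viewpoints. Its median over the 4 libraries was 4.31 on the lower and 3.12 on the higher side of Sik1. Zfp108, also among many CTCF peaks, had 9.56 on its lower and 1.69 on its higher side, and Zfp111 had 1.89 and 2.92. The other 4 viewpoints had between 0.533 and 1.76 on the lower and between 1.92 and 2.45 on the higher side.

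The first question was whether the Sik1 promoter lost contacts at a distance when ZFP143 was depleted. The share of reads between 20 kb and 1 Mb was 29.5% and 27.1% in DMSO and 29.0% and 22.0% after dTAG. The first dTAG library lay between the DMSO libraries and the second, the shallow one, lay below both. The means were 28.3% ± 1.75 and 25.5% ± 4.94 (SD, n = 2 each), a difference of -2.81 percentage points (exact permutation test, two-sided, p = 0.667). Without the second dTAG library the difference was 0.679 points. As a share of the reads outside the fragment next to the viewpoint, the values were 47.2% and 46.8% in DMSO and 47.2% and 44.1% after dTAG, a difference of -1.37 points.

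Within the locus the reads were spread over distance in nearly the same way in the 4 libraries. Of the reads between 20 kb and 1 Mb, the ring from 100 to 200 kb, which holds both edges of the plateau, took 35.7% and 35.7% in DMSO and 37.1% and 36.8% after dTAG. The ring from 400 to 1000 kb took 16.7% and 16.6% in DMSO and 16.0% and 15.2% after dTAG. In these rings the groups did not overlap, with differences of 1.26 and -1.11 points, and the p-value of 0.333 is the smallest that the design allows. The ring from 20 to 50 kb took 12.1% to 13.0%, that from 50 to 100 kb took 17.1% to 17.4%, and that from 200 to 400 kb took 17.3% to 17.7%, with overlapping groups and differences of -0.29, 0.13 and 0.02 points.

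**Figure D2:**
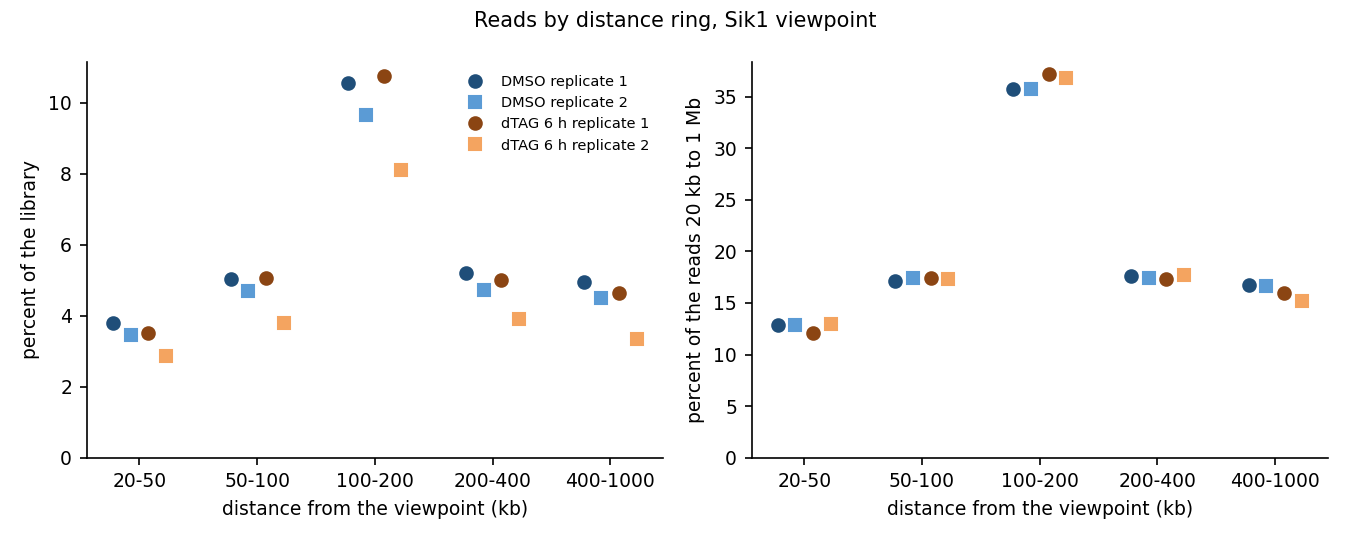
Each point is 1 Sik1 library, with distance rings in kb on the x axis and the percent of all reads of the library (left) or of the reads between 20 kb and 1 Mb (right) on the y axis. On the left the second dTAG library is lowest in every ring, and on the right the values of a ring lie close together, from 35.7% to 37.1% in the ring from 100 to 200 kb.

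Bin by bin, few contacts passed a test between DMSO and dTAG. Log2 profiles of any pair of libraries correlated with r of 0.96 to 0.98 over 98 bins of the same locus, which share the fall with distance, and the r between the DMSO libraries was 0.96. Of 98 bins, 1 (1.02%) was called at an adjusted p under 0.05 and was lower after dTAG, by limma on log2(mean RPM per fragment + 1) with Benjamini-Hochberg adjustment, and 6 had an unadjusted p under 0.05. The log2 difference was below 0 in 79 bins, with a median of -0.19. After regional scaling it was below 0 in 53 bins, with a median of -0.04, and limma called 0 bins, with 6 at an unadjusted p under 0.05. On the recovered reads edgeR and DESeq2 called 0 as well, with 1 and 3 bins at an unadjusted p under 0.05. In the RPM fit limma gave all 98 bins the same pooled variance (SE 0.38 each), so the spread of other bins stands in for that of a bin's own libraries, and the 95% interval reached 0.75 on either side of every log2 difference. After regional scaling it reached 0.49 in the median bin. These intervals are not adjusted for the number of bins. At the other 6 viewpoints together, limma called 0 of 588 bins (0.0%).

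The called bin lay 940 to 960 kb out, at chr17:32796704-32816704, over Zfp811 and Zfp799, zinc finger genes near the far end of the measured range. It had 6.29 and 13.1 RPM per fragment in DMSO and 3.63 and 2.09 RPM after dTAG. Both dTAG libraries were below both DMSO libraries, while the DMSO libraries differed from each other by more than the lower of them differed from the first dTAG library. The log2 difference was -1.42 (SE 0.38, limma adjusted p = 0.0238), on 256 and 573 reads in DMSO and 148 and 16 reads after dTAG. With regional scaling it was -1.30 with an adjusted p of 0.719. The call was lost without DMSO replicate 2 (-0.95) and without dTAG replicate 2 (-1.13).

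Other bins with low p-values were also thinly filled. The bin from -880 to -860 kb, over Umodl1, had 15.2 and 9.94 RPM in DMSO and 8.46 and 5.10 RPM after dTAG (log2 difference -0.81), and that from 620 to 640 kb, over the fatty acid hydroxylase gene Cyp4f39, had 23.0 and 19.5 RPM against 19.3 and 7.11 RPM (-0.79). In the other direction, the bin from 720 to 740 kb had 8.13 and 0.918 RPM in DMSO and 12.1 and 3.83 RPM after dTAG (0.93), with overlapping groups. The limma adjusted p was 0.749 for each of these 3 bins. Single libraries decided the last of them, whose log2 difference was 2.05 without DMSO replicate 1 and 1.65 without dTAG replicate 2, both called (limma adjusted p = 0.0101 and 0.0166), and -0.20 without DMSO replicate 2 and 0.21 without dTAG replicate 1. The bin from 620 to 640 kb had -1.45 without dTAG replicate 1, called (limma adjusted p = 0.0300), and -0.12 without dTAG replicate 2. The bins from -940 to -920 kb, over Glp1r, and from 960 to 980 kb, over Zfp799, followed in this direction, with log2 differences of 0.39 and 0.33 and adjusted p-values of 0.996.

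**Figure D3:**
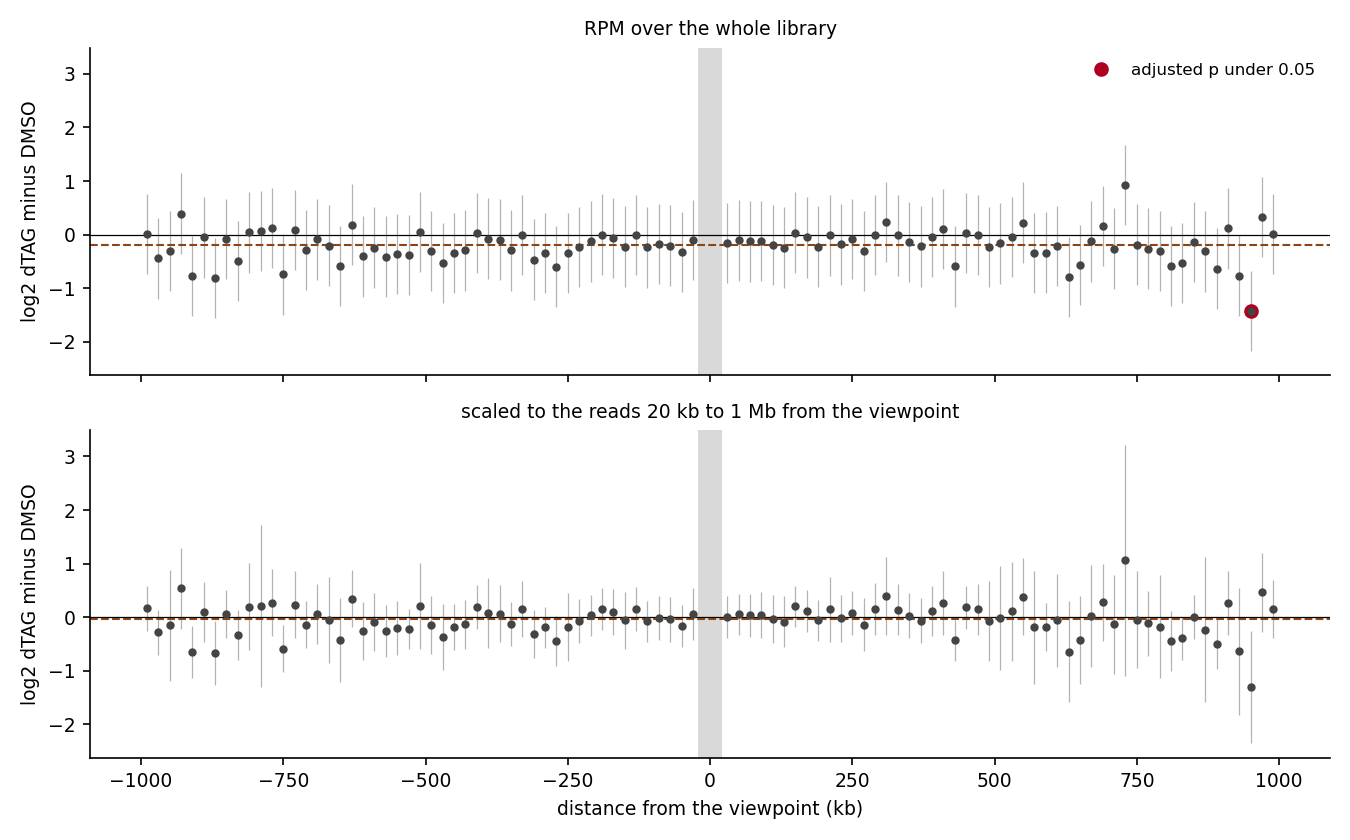
Points are log2 differences (dTAG minus DMSO) of 98 bins of 20 kb with 95% intervals against distance from the Sik1 viewpoint, from RPM (upper) and after regional scaling (lower), and the dashed line is the median. The median moves from -0.19 to -0.04 with the scaling, and 1 bin, 940 to 960 kb out, is called in the upper panel and none in the lower.

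Several distal bins stood above the level that the fall of contacts with distance gave, a fit made to the same 98 bins. The highest ratio to that level was 3.09, in the bin from -980 to -960 kb over Dnah8, a gene for an axonemal dynein heavy chain, which held 1 CTCF peak. This bin had 36.0 and 29.8 RPM in DMSO and 28.8 and 19.8 RPM after dTAG, with both dTAG libraries below both DMSO libraries and a log2 difference of -0.44 (limma adjusted p = 0.996). The next bin inward, over the incretin receptor gene Glp1r, had a ratio of 1.93, and 2 bins over Abcg1, which encodes a cholesterol exporter, had 1.89 and 1.77. The former, from -760 to -740 kb, had 24.4 and 26.7 RPM in DMSO and 16.8 and 13.2 RPM after dTAG, a log2 difference of -0.74 (limma adjusted p = 0.749). Both dTAG libraries were below both DMSO libraries there, also with regional scaling (-0.59). This was not particular to these bins. It also held, with either scaling, in others such as those from -480 to -460 kb and from -360 to -340 kb. With regional scaling both dTAG libraries were the higher pair from -420 to -400 kb.

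Nearer to Sik1, the bin from -540 to -520 kb lay over Slc37a1, a sugar phosphate transporter gene, and held 4 CTCF peaks. It had 48.1 and 45.0 RPM in DMSO and 40.3 and 31.5 RPM after dTAG, a ratio to the expected level of 1.44 and a log2 difference of -0.38. The bin from -340 to -320 kb covered the adjoining genes Wdr4, for a tRNA methyltransferase subunit, and Ndufv3, for a subunit of respiratory complex I. It had 85.4 and 70.3 RPM in DMSO and 77.3 and 76.8 RPM after dTAG (ratio 1.51, log2 difference -0.01), with dTAG values between the DMSO values. At the lower edge of the plateau the bin from -180 to -160 kb had 329 and 322 RPM in DMSO and 381 and 254 RPM after dTAG (ratio 1.38, -0.07), and here the dTAG libraries lay on either side of DMSO. The remaining 3 of the 10 highest, from -840 to -800 kb and from -580 to -560 kb, had ratios of 1.43 to 1.48 and adjusted p-values of 0.996. All 10 lay at lower coordinates than Sik1.

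The second question was whether contacts with CTCF sites differed from those with other DNA. Of the fragments, 891 lay within 5 kb of a CTCF peak centre and 3323 did not. Distance rings of 100 kb pooled both sides of the viewpoint, so a difference between the sides can enter the ratios below. Within the same ring the CTCF-near fragments had 1.30 and 1.29 times the mean RPM of the others in DMSO and 1.32 and 1.28 times after dTAG. The dTAG values lay on either side of the DMSO values. The difference of the mean log2 ratio was 0.0011 (exact permutation test, two-sided, p = 1.00). It turned below 0, to -0.0194, without dTAG replicate 1, and stood at 0.0216 without dTAG replicate 2, so its sign depended on single libraries. For fragments within 2 kb of a peak centre the log2 ratio was 0.477 and 0.376 in DMSO and 0.487 and 0.514 after dTAG, with no overlap, a difference of 0.07 (exact permutation test, two-sided, p = 0.333, the smallest possible). With no distance rings the groups separated the other way, at 0.141 and 0.143 in DMSO and 0.124 and 0.134 after dTAG, a difference of -0.0130 with the same exact p of 0.333.

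Merging peaks within 5 kb of each other gave 42 CTCF windows of 10 kb outside 20 kb. By limma 0 of 42 were called (0.0%), with 1 at an unadjusted p under 0.05 and a lowest adjusted p of 0.575, and the median log2 difference was -0.17, with 29 below 0. After regional scaling 0 were called (0.0%), with 1 at an unadjusted p under 0.05, a median of -0.02 and 22 below 0. edgeR and DESeq2 on the recovered RPM reads also called 0, with 2 and 1 windows at an unadjusted p under 0.05.

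The 5 windows inside the plateau had the highest contacts. The window at -105 kb had 417 and 388 RPM per fragment in DMSO and 409 and 287 RPM after dTAG (log2 difference -0.23). The window at -163 kb had 354 and 351 RPM in DMSO and 363 and 247 RPM after dTAG (-0.24), and that at -171 kb had 299 and 284 RPM against 368 and 242 RPM (0.04). In these windows the first dTAG library was within or above the DMSO values and the second was below them. The window at 169 kb had 280 and 218 RPM in DMSO and 266 and 216 RPM after dTAG (-0.04). With regional scaling the groups overlapped at -163 and 169 kb, both dTAG libraries were higher at -171 kb (0.20) and both were lower at -105 kb (-0.07).

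In RPM the window at -45 kb was the only one of the 5 in which both dTAG libraries lay below both DMSO libraries. It had 422 and 428 RPM in DMSO and 354 and 288 RPM after dTAG, a log2 difference of -0.41 (SE 0.36, 95% interval -1.18 to 0.35, limma adjusted p = 0.934). With regional scaling the values were 384 and 425 in DMSO and 329 and 352 after dTAG, which also did not overlap (-0.25, limma adjusted p = 0.860). DESeq2 on the recovered reads with regional scaling, a fit added after the data had been seen, called this window alone (-0.26, adjusted p = 0.0227). In RPM both dTAG libraries were also below DMSO at CTCF windows outside the plateau, such as those at -561 and -346 kb. They were above DMSO at 287 kb, so groups that do not overlap were not particular to -45 kb.

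Outside the plateau the CTCF windows with the highest contacts had between 30.3 and 92.7 RPM in single libraries. The window at -327 kb, over Ndufv3, had 82.8 and 78.3 RPM in DMSO and 92.7 and 91.5 RPM after dTAG (0.19), with dTAG above DMSO. That at 218 kb, which holds 2 CTCF peaks, had 52.3 and 50.8 RPM against 50.7 and 72.1 RPM (0.23). The windows at -192 kb and at 305 kb over Notch3 had log2 differences of -0.10 and 0.41 with overlapping groups. The limma adjusted p of these 4 was 0.934 or higher.

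**Figure D4:**
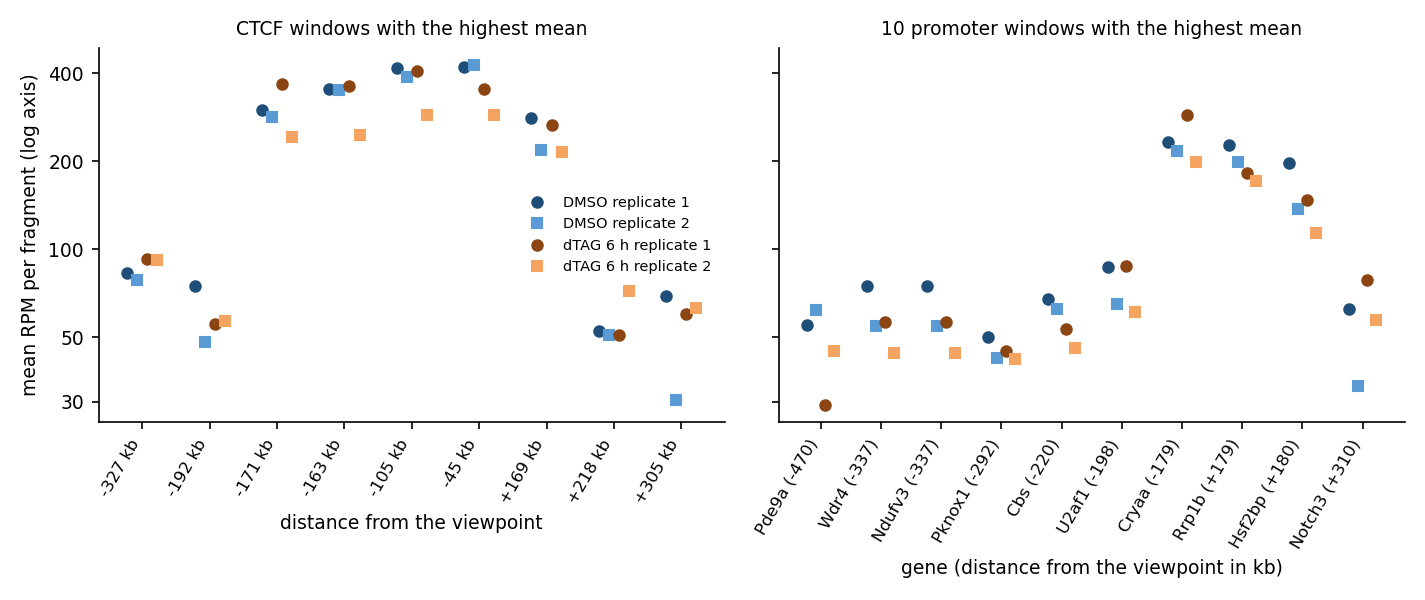
Points are single Sik1 libraries, with mean RPM per fragment (log axis) in the CTCF windows of highest mean (left, by distance) and the 10 promoter windows of highest mean (right, by gene). The groups overlap at most CTCF windows, the window at -45 kb shows both dTAG values below DMSO, and Cryaa and Rrp1b have the highest promoter values.

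The third question was whether the Sik1 promoter changed its contacts with other promoters. The 36 promoter windows of 10 kb around starts of protein-coding genes gave 0 calls by limma (0.0%), with 2 at an unadjusted p under 0.05, a median log2 difference of -0.30 and 26 below 0. After regional scaling limma called 0 (0.0%), with 2 at an unadjusted p under 0.05, a median of -0.15 and 22 below 0. edgeR and DESeq2 on the recovered RPM reads each called 0 and had 1 window at an unadjusted p under 0.05. The interval of the median window reached 0.95 on either side of its log2 difference.

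The highest promoter contacts were those of the tested promoters nearest to Sik1, at the edges of the plateau, so this rank follows distance. No tested promoter lay farther inside. The promoter of Cryaa, which encodes the lens chaperone alpha-A crystallin, at -178.9 kb, had 233 and 217 RPM per fragment in DMSO and 288 and 199 RPM after dTAG (log2 difference 0.09, limma adjusted p = 0.933). The dTAG libraries lay on either side of DMSO. With regional scaling they were 267 and 244 against 212 and 216 in DMSO, so both were higher, by 0.25 on the log2 scale (limma adjusted p = 0.823), and DESeq2 with this scaling, an added fit, called Cryaa alone (0.27, adjusted p = 0.00147). On the other side, Rrp1b, which encodes a nucleolar protein of ribosome biogenesis, had 227 and 199 RPM in DMSO and 182 and 171 RPM after dTAG (-0.27). Hsf2bp, a gene of meiotic recombination whose window overlaps that of Rrp1b, had 197 and 138 RPM against 148 and 113 RPM (-0.35). The dTAG libraries were both below DMSO at Rrp1b, but with regional scaling they had 169 and 209 against 207 and 198 in DMSO and overlapped (-0.11). The groups overlapped at Hsf2bp with either scaling.

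Farther out, U2af1, for a splicing factor, had 86.6 and 64.6 RPM in DMSO and 87.5 and 61.1 RPM after dTAG (-0.03). The shared window of Wdr4 and Ndufv3 had 74.9 and 54.7 RPM against 56.2 and 44.2 RPM (-0.35), and that of the receptor gene Notch3 had 62.2 and 33.9 RPM against 78.1 and 57.1 RPM (0.53). These groups overlapped. With regional scaling they did so at U2af1 alone, the dTAG libraries being the lower pair at Wdr4 and Ndufv3 (-0.19) and the higher pair at Notch3, with 56.6 and 33.7 in DMSO and 72.5 and 69.8 after dTAG (0.69, limma adjusted p = 0.743). At Cbs, for cystathionine beta-synthase, DMSO had 67.3 and 62.2 RPM and dTAG had 53.1 and 45.9 RPM (-0.38), and at Pde9a, for a phosphodiesterase of cyclic GMP, they had 55.0 and 61.8 RPM and 29.2 and 44.9 RPM (-0.67). At both genes the dTAG libraries were the lower pair, and the limma adjusted p was 0.715. With regional scaling this held at Cbs, while the groups overlapped at Pde9a, where the second dTAG library, at 54.8, lay between the DMSO libraries. Pknox1, a homeobox gene, had 49.8 and 42.5 RPM against 44.7 and 41.9 RPM (-0.09).

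The window with the lowest p was that of Zfp811, in the called bin, which was chosen after its values had been seen. It had 9.98 and 13.6 RPM in DMSO and 3.21 and 3.14 RPM after dTAG, with no overlap, and a log2 difference of -1.60 (SE 0.33, limma adjusted p = 0.146). The second dTAG library held 11 reads there.

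The next question was whether contacts with ZFP143 sites differed. The deposited list, called in 1 DMSO library, held 6 peaks within 1 Mb, against 16 and 14 around Zfp108 and Zfp111 and 1 to 4 around the other 4 viewpoints. The nearest lay at -14.9 kb, and none overlapped a CTCF peak. Their fold enrichment over input was between 7.13 and 17.8. Outside 20 kb, the peaks at -62.6 and -29.9 kb lay in the plateau. The 10 kb window at -62.6 kb had 318 and 250 RPM per fragment in DMSO and 291 and 247 RPM after dTAG, and that at -29.9 kb had 384 and 337 RPM against 342 and 321 RPM, with overlapping groups in both. Their log2 differences were -0.07 and -0.12 (exact permutation test, two-sided, p = 0.667 for both), and 0.09 and 0.05 with regional scaling.

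At -377.9 kb the window had 44.0 and 52.6 RPM in DMSO and 46.7 and 38.7 RPM after dTAG (-0.17). At 272.1 kb, in an intron of Notch3, it had 49.8 and 32.5 RPM against 35.5 and 31.1 RPM (-0.27), and the groups overlapped at both. The peak at 464.6 kb, 0.04 kb from the start of Akap8, which encodes an anchoring protein of protein kinase A, is the nearest of the 6 to a promoter. Its window had 32.2 and 35.4 RPM in DMSO and 30.3 and 28.5 RPM after dTAG, both below DMSO, with a log2 difference of -0.19 (exact permutation test, two-sided, p = 0.333, the smallest possible), which became -0.04 with overlapping groups after regional scaling (p = 0.667).

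Nascent transcription of Sik1 and its neighbours was read from transient transcriptome sequencing (TT-seq), which captures RNA made during a short pulse of a labelled nucleotide, in 8 libraries of the same line that cover DMSO and dTAG treatment for 2, 6 or 24 h. ZFP143 is depleted as a protein, so these RNA levels do not check the depletion, and in such bulk samples fewer cells of a type cannot be told apart from less RNA per cell. At 2, 6 and 24 h edgeR called 2.6%, 3.23% and 6.11% of all 17870 genes tested (a log2 change beyond 0.5 in either direction at an adjusted p under 0.05), 11.3%, 17.4% and 21.7% of them had an unadjusted p under 0.05, and their median log2 change was 0.01 at each time. All of 8 stem cell markers were tested, edgeR called 0 at each time with 0, 1 and 1 at an unadjusted p under 0.05, and their summed level was 3378 to 3922 CPM (counts scaled to the total of a library) over the 8 libraries. Most of this sum came from Esrrb, Tfcp2l1 and Zfp42. Pou5f1 had 82.5 and 85.5 CPM in DMSO, 58.7 and 64.1 CPM at 6 h and 46.0 and 63.3 CPM at 24 h, with log2 changes of -0.45 and -0.62 (edgeR adjusted p = 0.205 and 0.0652), and DESeq2 called it at 24 h. Nanog had 231 and 368 CPM in DMSO and 162 and 257 CPM at 24 h, with overlapping groups (-0.51, edgeR adjusted p = 0.322). The part of these marker values in the other results was not tested. Of 8 markers of other cell types only Gata6 passed the filter, at 0.413 to 1.67 CPM.

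Sik1 had 70.1 and 49.8 CPM in DMSO and 63.8 and 51.8 CPM after 6 h of dTAG, with dTAG values between the DMSO values. At 2 h it had 72.0 and 55.6 CPM and at 24 h 66.1 and 52.0 CPM. The log2 changes were 0.09, -0.05 and -0.02 at 2, 6 and 24 h, with edgeR quasi-likelihood adjusted p-values of 0.914, 0.939 and 0.973.

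Of 37 protein-coding genes that start within 1 Mb, 26 were tested and edgeR called 0 at 2, 6 and 24 h, beside the 2.6%, 3.23% and 6.11% of all genes. At an unadjusted p under 0.05 there were 1, 1 and 4 genes of the locus, beside 11.3%, 17.4% and 21.7% of all genes, and DESeq2 also called 0 at each time. The median log2 change of the 26 was 0.02, -0.02 and -0.04, beside 0.01 for all genes at each time. Among the genes whose promoters had the highest contacts, Cryaa had at most 1 count and was not tested. Rrp1b had 201 and 217 CPM in DMSO and 188 and 188 CPM at 6 h (log2 change -0.15, edgeR adjusted p = 0.504), and Hsf2bp had 156 and 144 CPM against 181 and 149 CPM (0.14, 0.680). Both 6 h libraries were below DMSO at Rrp1b, and the groups overlapped at Hsf2bp.

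Pde9a had 18.2 and 20.9 CPM in DMSO and 14.9 and 9.59 CPM at 6 h, with no overlap (-0.68, edgeR adjusted p = 0.344). Cbs had 40.4 and 28.2 CPM in DMSO and 33.3 and 24.0 CPM at 6 h, with overlap (-0.26, 0.670), and its log2 change at 24 h was -0.72 (0.169). Notch3 had 52.9 and 33.1 CPM against 51.1 and 47.2 CPM (0.20, 0.777). U2af1, Wdr4, Ndufv3 and Pknox1 had log2 changes between -0.27 and -0.08 at 6 h. Zfp811, in the bin called in 4C, had 12.2 and 9.98 CPM in DMSO and 11.8 and 10.2 CPM at 6 h (-0.01, 0.989).

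**Figure D5:**
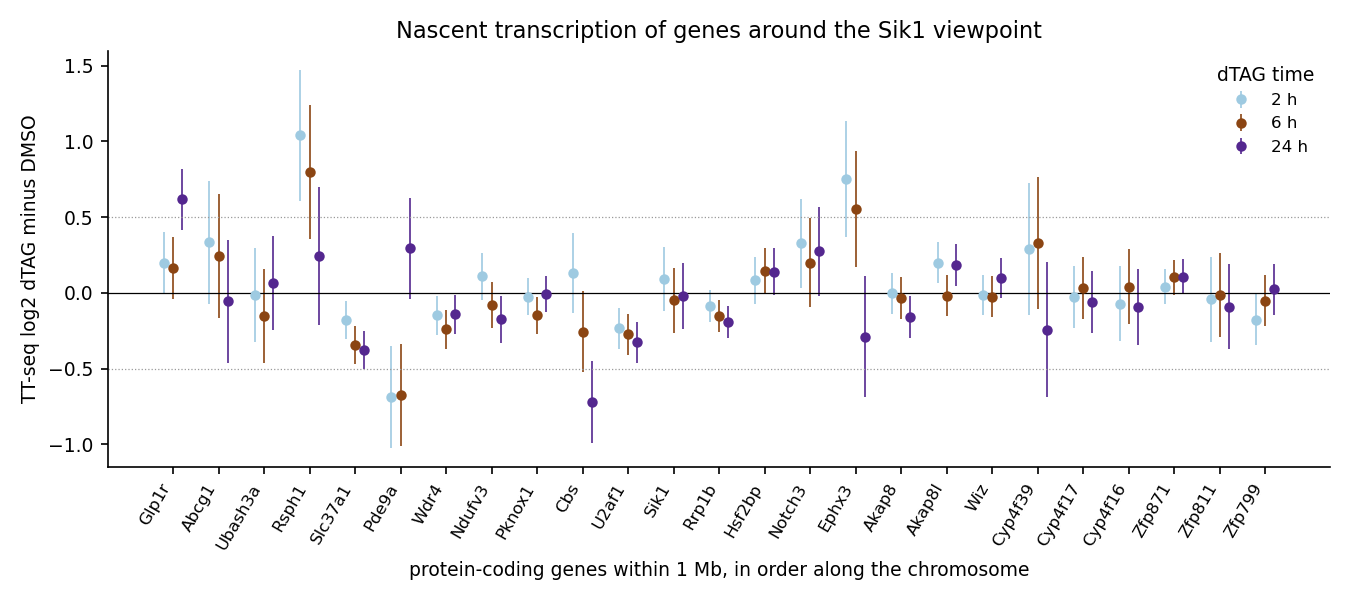
Points are TT-seq log2 changes against DMSO with standard errors at 2, 6 and 24 h of dTAG for the tested genes within 1 Mb, 1 of them left out, in order along the chromosome, and dotted lines mark 0.5 on either side of 0. Sik1 lies near 0 at each time, and no gene of the locus passed the test.

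A list of 13 genes for CTCF, cohesin and other architectural factors was measured in full, and edgeR called 0 of 13 at each time, with 5, 6 and 2 at an unadjusted p under 0.05, beside 11.3%, 17.4% and 21.7% of all genes. Its median log2 change was 0.16, 0.22 and 0.12, beside 0.01 for all genes at each time. Ctcf had a log2 change of -0.03 at 6 h (edgeR adjusted p = 0.956), and the cohesin genes Stag1 and Pds5a had 0.60 and 0.50 (0.0935 and 0.0872). Mau2 went the other way, with the lowest value of the list at 6 h, -0.39 (edgeR adjusted p = 0.106). DESeq2 called Stag1 alone of this list, at 6 h. Of 13 genes of the SIK pathway, from the upstream kinase Stk11 to the CRTC coactivators and class IIa histone deacetylases, edgeR and DESeq2 called 0 at each time, with 1, 5 and 1 at an unadjusted p under 0.05 in edgeR, against the same shares of all genes. The median was 0.17, 0.05 and -0.02, again beside 0.01, and Crtc2, with -0.45 at 6 h (0.233), had the lowest value at that time.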

How the data were processed

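The authors cut with MboI, which shares the GATC site of DpnII, and with Csp6I, mapped 4C reads to mm10 with bwa, kept MAPQ above 3 with SAMtools, counted reads per fragment end and deposited RPM per fragment. Whole reads were recovered from these RPM for 100% of values, within 0.1 read. The deposited ZFP143 peaks carry a fold enrichment over input by MACS2. CTCF peaks have positions without values, with the peaks of DMSO and dTAG cells pooled by the authors, so CTCF binding was not compared. TT-seq counts, deposited by the authors, came from STAR and htseq-count on GENCODE vM25 after removal of duplicates. Tool names also stand in the submitters' processing notes.

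Here RPM was averaged over the fragments of 20 kb bins and 10 kb windows with at least 3 fragments, with zeros kept, and tested as log2(mean RPM + 1) with limma (3.58.1 in R 4.3.3), a test that understates changes of low values. Single values were tested with exact permutation tests (scipy 1.17.1). edgeR (4.0.16) and DESeq2 (1.42.0) were run on the recovered reads as alternatives. TT-seq genes with over 10 counts in at least 4 of 8 libraries were tested with the edgeR quasi-likelihood test and called where the adjusted p was below 0.05 and the log2 change exceeded 0.5 in size. The limma fit was tried on simulated bins with the replicate spread of the regionally scaled data, which is smaller than that in RPM. It recovered 5.25% of bins changed 1.5-fold, 59.75% of those changed 2-fold and 98.25% of those changed 3-fold. Smaller changes would therefore mostly be missed. Reads carry no molecular identifiers, so read numbers are not independent molecules. Alternatives covered bins, windows, pseudocounts, low values, scaling, edges, tools, the replicate block and each library left out.

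The named bins were the 10 with the highest ratio to the level expected at their distance, the called ones and the 3 lowest p-values in each direction. Named windows were the 10 with the highest mean RPM and the called ones, and named genes were Sik1, those of the 10 promoter windows and called locus genes. Other genes and bins named were chosen after their values were seen, as were the bounds of the plateau. The locus and the gene lists were chosen with earlier results of these data known. Genes and the starts used for the promoter windows came from the GRCm38 reference annotation. RefSeq promoter windows were used only for the share of promoters with a CTCF match. RNA-seq, Hi-C and signal tracks were not used here, and 1 gene with its CTCF window and 1 CTCF match are not reported here by name or value.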

Additional observations from a re-analysis of the deposited data

How the results depend on the processing

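The single bin call was kept with a pseudocount of 0.1, without DMSO replicate 1 and without dTAG replicate 1, and with regional scaling without DMSO replicate 1. The number of called bins was 0 with regional scaling, with the reads outside the adjacent fragment as the total, with 10 kb or 50 kb left out, with the highest fragment left out, with bins under 10 RPM left out, with 10 kb and 50 kb bins, with a pseudocount of 10, with edgeR and with DESeq2. Without 1 library at a time the number ranged from 0 to 3 (2 without DMSO replicate 1, 0 without DMSO replicate 2, 3 without dTAG replicate 1, and 1, another bin, without dTAG replicate 2), and with regional scaling from 0 to 2. Regional scaling with edgeR and DESeq2, added after the data had been seen, gave 0 bins, and with DESeq2 1 CTCF window and 1 promoter window. Promoter calls with regional scaling ranged from 0 to 3 without 1 library at a time, 3 of them without DMSO replicate 1 and 1 without DMSO replicate 2. All other alternatives called 0 CTCF and 0 promoter windows. The share of reads between 20 kb and 1 Mb ranged from -6.30 to 0.679 points without 1 library at a time, the latter without dTAG replicate 2, and kept its sign otherwise. The CTCF-near log2 ratio was -0.0130 with no rings, -0.0409 with the highest fragments left out and 0.0742 within 2 kb, and ranged from -0.0194 to 0.0216 without 1 library at a time (-0.0042 without DMSO replicate 2). TT-seq calls at 6 h were 577, 1318 with no filter and 118 to 351 without 1 library at a time. With no filter Cbs was called at 24 h (log2 -0.73, adjusted p = 0.0109) and so were Nanog and Pou5f1 at 24 h, T at 2 and 6 h, and Stag1 at 6 h, the last also without DMSO replicate 2.

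The labels do not say that a replicate number marks a shared culture, and same-numbered 4C libraries deviated together with r of 0.21 over bins, -0.05 over CTCF and 0.03 over promoter windows. With the replicate block 0 bins were called, also with regional scaling, and 0 CTCF and 0 promoter windows. The differences of the share (-2.81 points) and log2 ratio (0.0011) cannot change with a block, because both groups hold the same replicate numbers. In TT-seq the r was 0.30, 0.21 and 0.67 for 2, 6 and 24 h against DMSO, over only 2 numbers. There the block gave 1315 calls at 6 h, and at 24 h Cbs (-0.73, adjusted p = 0.0108) and Glp1r (0.62, adjusted p = 0.0471) of the locus, Nanog and Pou5f1, and at 6 h Stag1 and Pds5b of the architectural list.

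The depth of the second dTAG library and the number of replicates limit the precision: of 98 bins, 42 had a mean under 20 RPM per fragment, and the median bin held 137 reads in that library.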
